A study of Mus musculus with 8 samples.

Results

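Of the replication initiation sites (ISs) mapped in CH12 cells, those described here were AT-rich, lay between genes and were not in gene deserts. An IS was included where less than 35% of its bases were G or C in mm9, where it overlapped no protein-coding gene, and where 1 to 19 transcription start sites (TSSs) of protein-coding genes lay within 500 kb of its midpoint. Chromosomes 10, 15 and 16 were not used. The limits are set on sequence, annotation and chromosome, and they were chosen with earlier results of these data known. They selected 644 of the 39116 ISs (1.65%) in the table of Rif1KO against WT and 3866 of the 129937 ISs (2.98%) in the table of Rif1KO_shMcm6 against Rif1KO_shLacZ, and 211 ISs met them in both tables.

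CH12 is a mouse B cell lymphoma line, and the labels give stimulation with IL4, CD40 and TGF beta for the cells. Short nascent strand sequencing (SNS-seq) was carried out on 2 libraries from each of 4 groups. WT and Rif1KO are the parental line and its derivative without the Rif1 gene. Rif1KO_shLacZ and Rif1KO_shMcm6 are Rif1KO cells infected with lentivirus carrying a short hairpin, directed at the bacterial gene LacZ as the control or at Mcm6. Both hairpin groups therefore lack RIF1, were transduced and were selected with puromycin. One comparison thus addresses RIF1 itself, and the other MCM6 where RIF1 is already missing. The tables hold 1 pooled value per condition, so no value below has a replicate error and no test between conditions could be made. Errors given as a counting SE or a Wilson interval cover the sampling of reads or of ISs only.

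DNA replication starts where MCM helicases, loaded in advance by the origin recognition complex, are activated in S phase. MCM6 is a subunit of that helicase, and RIF1 is a factor that restrains activation through a protein phosphatase and shapes the timing of replication. Mammalian origins mapped by nascent strands tend to be GC-rich, to lie near promoters and to carry G-rich sequence, so AT-rich ISs away from promoters are an uncommon kind of origin call.

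The ISs that changed most show what such sequence looks like, and the first set below has the highest log2 fold change of each comparison among ISs of at least median density, together with the IS near Vrk2, which was among the highest sums over both comparisons. The sequences are the central 300 bases of each IS on the plus strand of mm9, and capitals mark the longest stretch made of A and T alone. Each is named after the protein-coding gene with the nearest TSS.
Kif20b, chr19:35407130-35407429: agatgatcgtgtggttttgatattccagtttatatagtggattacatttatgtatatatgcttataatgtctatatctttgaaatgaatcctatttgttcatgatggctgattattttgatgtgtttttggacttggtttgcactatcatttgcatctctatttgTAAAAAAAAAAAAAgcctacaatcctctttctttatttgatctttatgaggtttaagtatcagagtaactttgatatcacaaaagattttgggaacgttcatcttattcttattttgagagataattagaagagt
Klhl1, chr14:97385233-97385532: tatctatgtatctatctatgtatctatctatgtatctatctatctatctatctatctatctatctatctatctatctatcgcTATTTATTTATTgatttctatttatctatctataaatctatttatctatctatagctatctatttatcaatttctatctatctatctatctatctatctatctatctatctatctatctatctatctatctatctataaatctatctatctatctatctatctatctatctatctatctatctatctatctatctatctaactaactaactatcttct
Vrk2, chr11:26976901-26977200: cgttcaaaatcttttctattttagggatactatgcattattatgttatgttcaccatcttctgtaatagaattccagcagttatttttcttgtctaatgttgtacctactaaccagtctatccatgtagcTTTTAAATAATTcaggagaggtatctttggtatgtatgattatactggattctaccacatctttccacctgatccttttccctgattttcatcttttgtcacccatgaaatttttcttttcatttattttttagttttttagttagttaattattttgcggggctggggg
The share of G and C was 28.3% in the Kif20b window, 23% in the Klhl1 window and 32.3% in the Vrk2 window. The capitals span 14, 12 and 12 bases, so no long stretch of A and T alone was in these 3 windows. The Klhl1 window is largely a repeat of 4 bases: runs of at least 6 copies of a 4-base unit make up 172 of its 300 bases, and no such run is in the Kif20b or Vrk2 window.

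The second set holds the 3 ISs with the lowest sum of fold changes over both comparisons, and here capitals mark a G-quadruplex pattern, defined as at least 4 runs of at least 3 G joined by loops of 1 to 7 bases on either strand. The windows are at most 300 bases around the midpoint of the IS in the table of Rif1KO against WT.
Ankrd7, chr6:19130217-19130516: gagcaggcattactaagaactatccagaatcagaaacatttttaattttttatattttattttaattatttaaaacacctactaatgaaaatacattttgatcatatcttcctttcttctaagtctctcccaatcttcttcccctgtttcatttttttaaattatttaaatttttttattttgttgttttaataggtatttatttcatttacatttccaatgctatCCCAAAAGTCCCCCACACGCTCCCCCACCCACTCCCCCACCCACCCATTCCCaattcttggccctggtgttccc
Gm12666, chr4:91937444-91937732: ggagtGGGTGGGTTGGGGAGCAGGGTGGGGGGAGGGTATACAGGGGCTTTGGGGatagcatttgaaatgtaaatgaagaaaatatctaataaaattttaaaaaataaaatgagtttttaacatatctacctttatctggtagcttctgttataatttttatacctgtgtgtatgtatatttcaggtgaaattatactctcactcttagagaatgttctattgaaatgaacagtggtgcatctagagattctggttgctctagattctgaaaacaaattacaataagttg
Zfp827, chr8:81494507-81494806: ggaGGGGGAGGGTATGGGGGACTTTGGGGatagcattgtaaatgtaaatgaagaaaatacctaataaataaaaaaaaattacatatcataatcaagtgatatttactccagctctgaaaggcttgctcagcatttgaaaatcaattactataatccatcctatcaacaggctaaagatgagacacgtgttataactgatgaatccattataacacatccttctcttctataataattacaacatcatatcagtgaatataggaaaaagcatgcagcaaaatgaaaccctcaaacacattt
The pattern spans 52, 49 and 26 bases in AT-rich surroundings, and the whole ISs had GC of 33.99%, 34.6% and 33.96%. The pattern lay on the minus strand at Ankrd7 and on the plus strand at Gm12666 and Zfp827. None of the 3 windows of the first set held it. The sets were chosen by different rules on fold change, so their contrast is a description of 6 ISs. Among the other ISs named for high fold changes or sums, the Gm10801 window held the pattern over 27 bases. Those near Rwdd3, G6pd2, Tnip3 and Gm8226 did not. The windows named for the lowest fold changes of each table held none. The 3 windows of the second set also share a similar stretch beside the pattern, on the other strand at Ankrd7. The Gm8226 window of the first table holds this stretch too. The 3 are therefore not independent examples.

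The limit on GC fixes much of the motif content, so the shares below are descriptions and not findings about these ISs. In the 300 bases around the midpoint, 390 of 644 ISs of the Rif1KO against WT table (60.6%) held at least 1 CG, against 83.0% of all ISs on the 16 autosomes, and 2188 of 3866 (56.6%) did so in the hairpin table, against 79.5%. The G-quadruplex pattern was in 21.9% of them, against 50.2% of all ISs, and in the deeper hairpin table in 6.16%, against 21.3%. The palindrome CAGCTG, an E-box, was in 3.88% against 9.63% and in 2.53% against 9.89%, and the E-box CACGTG was in 0.776% against 3.03% and in 0.983% against 2.77%. GAGGAA, the core bound by PU.1, was in 21.3% against 32.7% and in 21.5% against 32.6%. Among the other AT-rich ISs, the G-quadruplex pattern was in 23.5% of those with no TSS within 500 kb, 27.6% of those with 20 or more and 22.0% of those inside genes in the first table, and in 6.88%, 7.12% and 6.18% in the second. In the first table the same 3 classes had CAGCTG in 2.47%, 1.72% and 1.74% of windows and GAGGAA in 23.9%, 32.8% (19 of 58) and 22.6%.

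AT-rich motifs were more frequent than over all ISs, which the GC limit also builds in, and repeats of CA or TG less frequent. TATAAA was in 322 of 644 windows (50%) against 19.6% of all windows, and in 51.6% against 23.5% in the hairpin table. In the other AT-rich classes TATAAA was in 48.7% to 58.6% of windows in the first table and 52.6% to 54.0% in the second. A run of at least 8 A or 8 T was in 43.9% against 20.2% and in 34.2% against 18.3%. At least 10 bases of alternating A and T, on either strand, were in 3.42% against 0.659% and in 3.96% against 0.904%. ATGCAAAT, the octamer of OCT factors, was in 14 of 644 windows (2.17%) against 1.74%, and in 150 of 3866 (3.88%) against 2.28%. At least 6 copies of CA or TG in a row were in 1.09% against 2.56% and in 2.199% against 3.48%. All motifs were searched on both strands, and matches of TATAAA can overlap those of alternating A and T.

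A run of letters recurred in these ISs. Among 12-base sequences with at least 4 G or C, the most frequent was ACATTTCCAATG, or CATTGGAAATGT on the other strand, which was in 67 of 644 windows (10.4%) of the Rif1KO against WT table and in 215 of 3866 (5.56%) of the hairpin table. It was in 4.63% and 3.001% of all windows, and in 9.93% and 5.05% of windows of intergenic ISs with the same gene neighbourhood and GC of 35 to 45%. Of the 67 windows, 32 also held the G-quadruplex pattern, and the Ankrd7 window printed above holds both. No repeat annotation was used, so whether this sequence belongs to a repeat family was not tested.

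Selection on the GC of the IS makes its centre poorer in G and C than its flanks, so only the surroundings are compared here. Median GC was 31.3% in the central 300 bases but 39.0% over 2 kb, 38.9% over 10 kb and 39.1% over 100 kb around the ISs of the Rif1KO against WT table. The hairpin table gave 30.3%, 38.1%, 38.3% and 38.4%. All ISs on the 16 autosomes had 43.6% and 42.1% over 10 kb in the 2 tables, so these ISs lay in surroundings that were AT-rich as well, though less so than the ISs themselves. AT-rich intergenic ISs with no TSS within 500 kb lay in still poorer surroundings, with 37.1% over 10 kb in both tables.

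**Figure D1:**
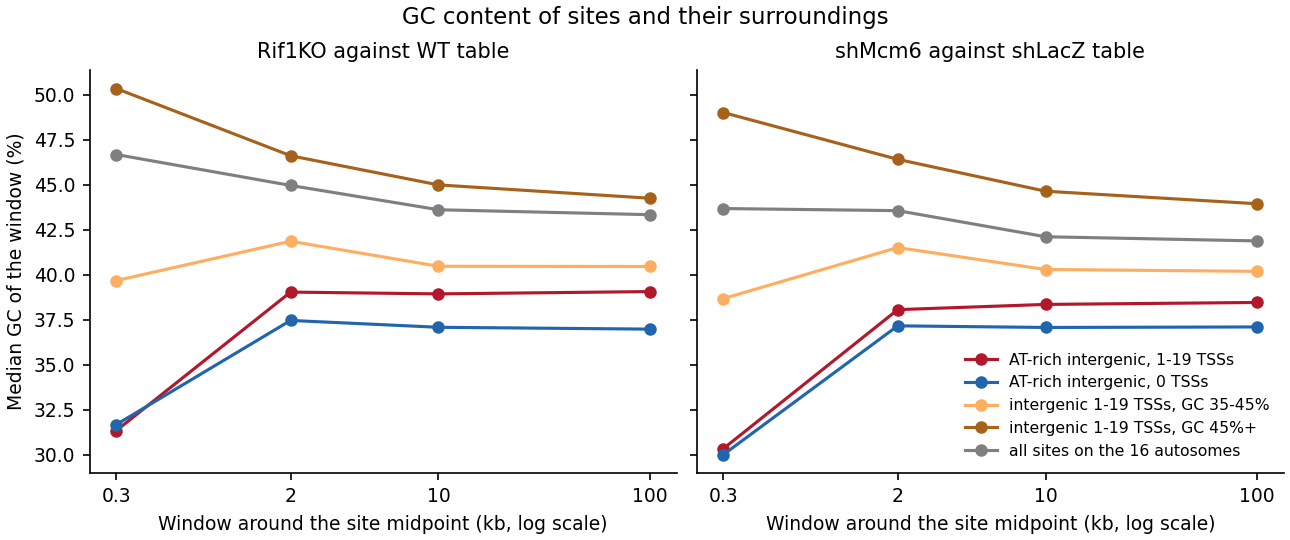
Median GC (%) in windows of 0.3, 2, 10 and 100 kb around the midpoint of ISs, for 5 sets of ISs in each table, with the window on a log axis. The AT-rich intergenic ISs (red) rise from 31.3% to 39.0% between 0.3 and 2 kb in the Rif1KO against WT table and then stay level, while ISs with GC of 45% or more fall towards their surroundings.

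The ISs were spread over the genome. In the Rif1KO against WT table the 644 ISs had 476 different nearest genes, and 519 of the 576 groups formed by linking ISs within 50 kb were single ISs. The hairpin table was denser, with 1486 nearest genes for 3866 ISs and 1797 single ISs among 2573 groups. The nearest TSS was a median of 140216 bp away (quartiles 50720 and 294786) in the first table and 165576 bp in the second, against 94707 and 106840 bp for intergenic ISs with 1 to 19 TSSs and GC of 35 to 45%. Over all ISs, those in genes included, it was 48420.5 and 65063 bp. Intergenic ISs with 1 to 19 TSSs and GC of 45% or more, which also leave out ISs in genes, had 50097 and 57045.5 bp. Only 1 TSS lay within 500 kb for 169 ISs (26.2%) and 1251 ISs (32.4%). A non-coding gene was overlapped by 25 ISs (3.88%) and 122 ISs (3.16%), against 4.77% and 4.40% of the other intergenic ISs of the same autosomes. Chromosome 14 held the most ISs in the first table, 120 or 3.80% of its ISs, and chromosome 3 the most in the second, 503 or 5.54%.

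The genes most often nearest were of several kinds. In the Rif1KO against WT table, Tpm3-rs7 was nearest to 8 ISs, and Pcdh17 (a protocadherin), Slitrk5 (a neuronal membrane protein that guides synapse formation) and Tacr3 (a neurokinin receptor) to 7 each. In the hairpin table Gm10110 and Gm9726 led with 21 each, followed by Slitrk6 with 20. Cadherin and protocadherin genes (Cdh and Pcdh) were nearest to 19 ISs (2.95%) and 98 ISs (2.53%), against 1.68% and 1.90% of the other intergenic ISs. These were 5 genes in the first table and 13 in the second. In the first table Pcdh17 with 7 ISs and Pcdh20 with 6, both on chromosome 14, held most of the 19. Chemosensory receptor genes (Olfr, Vmn and Taar) were nearest to 21 ISs (3.26%) and 76 ISs (1.97%), against 2.08% and 2.83%, so the tables differed in direction. Genes of a list of B cell genes were nearest to 1 of 644 and 2 of 3866 of these ISs, against 53 of 17677 and 159 of 65307 of the other intergenic ISs. Bcl11a, a transcription factor of lymphoid development, was nearest to 1 IS in the first table, and Bcl11a and Pou2f1, which encodes OCT1, to 1 each in the second.

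Read density, the reads of an IS per 1000000 reads in ISs of its table (RPM, given as log2), was low at the AT-rich intergenic ISs in each condition. The median was 4.09 (log2 RPM) in WT cells (quartiles 3.81 and 4.39) and 4.18 in Rif1KO cells (3.91 and 4.51), against 4.45 and 4.46 over all ISs. In the hairpin cells it was 2.38 with shLacZ (2.01 and 2.75) and 2.48 with shMcm6 (2.14 and 2.85), against 2.74 and 2.76. The tables were scaled separately, so levels are compared within a table only. The median was below that of the other ISs on 16 of 16 autosomes in each of the 4 conditions. The ISs were also narrower, with median widths of 399.5 and 545 bp against 447 and 596 bp over all ISs, and per kb of width the medians of 5.38 (WT) and 5.50 (Rif1KO) stayed below the 5.63 of all ISs in each condition. The ISs held a median of 57 reads in WT and 67.5 in Rif1KO cells, and of 110 and 132 in the hairpin cells, and the median counting SE of a log2 fold change was 0.26 and 0.19.

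**Figure D2:**
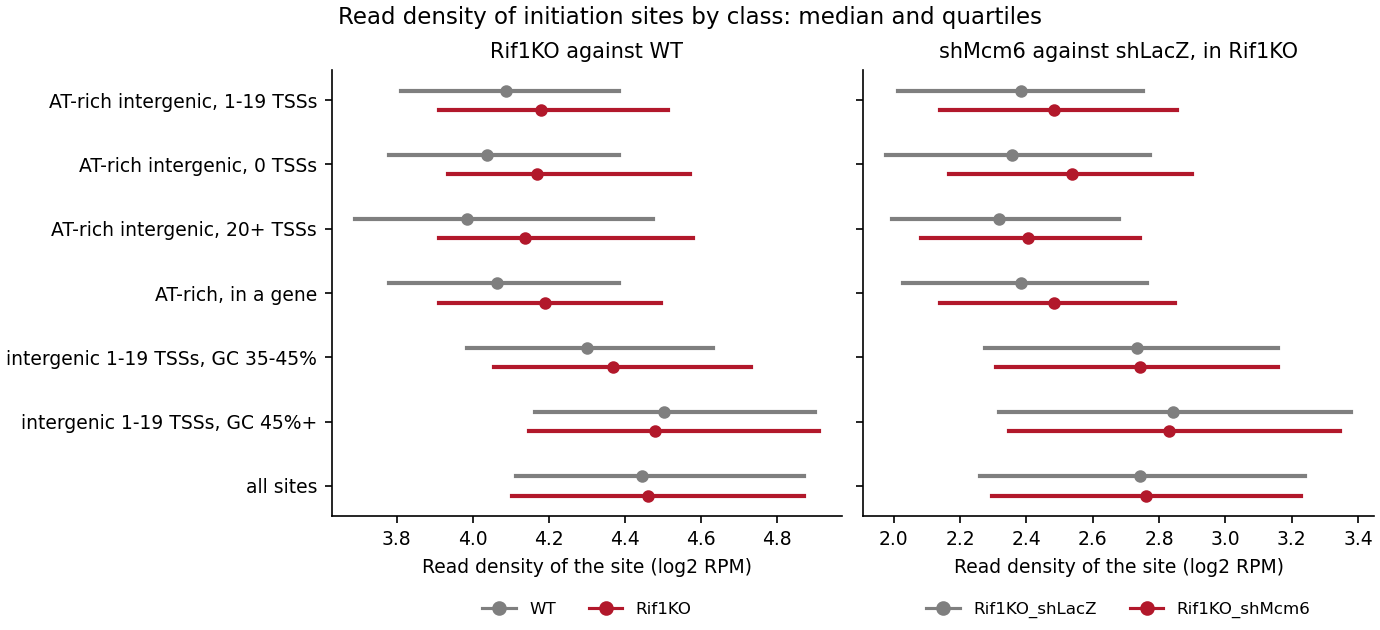
Read density (log2 RPM) by class of IS in the 4 conditions, the dot marking the median and the bar the quartiles over ISs. The 4 AT-rich classes lie to the left of the GC-richer classes in each condition, and in each of the 4 the Rif1KO or shMcm6 median is to the right of its control.

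The densest of them carried far more reads. An IS of 901 bp on chromosome 9 (3026487 to 3027387), 1520 bp from the TSS of Gm10717, had the highest WT density, with 303 reads (6.50) in WT and 299 reads (6.33) in Rif1KO cells. It was also the only one of the 644 built of a tandem repeat by the measure used, with 84.3% of bases equal to the base 234 positions further on, and no hairpin-table IS reached the 80% set for this. The next were near Gm6280 (174 and 226 reads) and 4921530L21Rik (170 and 180 reads), both on chromosome 14. In the hairpin table the densest IS lay near Chi3l4, which encodes a chitinase-like protein, with 523 reads (4.63) with shLacZ and 596 reads (4.66) with shMcm6.

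In Rif1KO cells the AT-rich intergenic ISs had, on the whole, a slightly higher read density than in WT cells. The median log2 fold change was 0.13 (quartiles -0.04 and 0.29), with 69.4% of the 644 ISs above 0, against a median of 0.01 and 51.0% above 0 for the other ISs of the same autosomes. Of the 644 ISs 62.7% entered the table through peaks of Rif1KO cells alone, against 32.6% of the other ISs, so part of this contrast is built in. Among ISs called in both conditions the median was 0.05, against -0.02 for the others, and it was 0.05 as well for intergenic ISs with the same gene neighbourhood and GC of 35 to 45%. Summed over the 644 ISs, reads went from 1.17% of all WT reads in ISs to 1.27% of the Rif1KO reads, a log2 ratio of 0.12 with a counting SE of 0.0099. The median of these ISs was above that of the other ISs of the chromosome on 16 of 16 autosomes, by 0.05 to 0.30. It was lowest on chromosome 5 (0.03, 31 ISs) and highest on chromosome 19 (0.29), which had 13 ISs, the fewest of any autosome.

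Changes past 1.5-fold, the threshold of the study, were few and nearly all upward. In Rif1KO cells 24 of 644 ISs (3.73%, 95% Wilson interval 2.52 to 5.49) were at least 1.5-fold higher, against 2.27% of all ISs of the table and 0.887% of the other ISs of the 16 autosomes. The share over the whole table includes chromosomes 10, 15 and 16, which the 644 ISs do not. At or above the lower quartile of density 6 of 327 ISs (1.83%) were higher, against 1.45% of all ISs, those of chromosomes 10, 15 and 16 included. All ISs were also split into 4 bins of equal size by mean density. From the second to the highest bin 2.22%, 1.83% and 0% of these ISs were higher. Of the other ISs of the 16 autosomes 0.503%, 0.258% and 0.0785% were. Only 1 IS (0.155%) was at least 1.5-fold lower, against 2.7% of all ISs and 1.37% of the others on the 16 autosomes. It lay nearest to AI593442 on chromosome 9, with 38 WT and 26 Rif1KO reads (log2 fold change -0.70, SE 0.37), and is named because it was the only one. At a log2 difference of 0.32, 134 ISs (20.8%) were higher and 19 (2.95%) lower, against 12.9% and 11.5% of all ISs.

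The ISs past 1.5-fold upward were all called in Rif1KO cells alone. Peaks of both conditions supported 178 of the 644 ISs, peaks of Rif1KO cells alone 404, and peaks of WT cells alone 62. All 24 of the 1.5-fold higher ISs were among the 404 (5.94%), against 2.65% of the other ISs of the 16 autosomes called in Rif1KO cells alone and 5.99% where the whole table, with chromosomes 10, 15 and 16, is counted. Among the 178 called in both conditions, 0 were past 1.5-fold in either direction, which allows a share of up to 1.69%. Of the other ISs of the 16 autosomes called in both, 0.0424% were higher and 0.345% lower, so 0 of 178 does not set the class apart. An IS called in 1 condition entered the table through that condition, so a difference towards it is built in, and these values are descriptions.

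**Figure D3:**
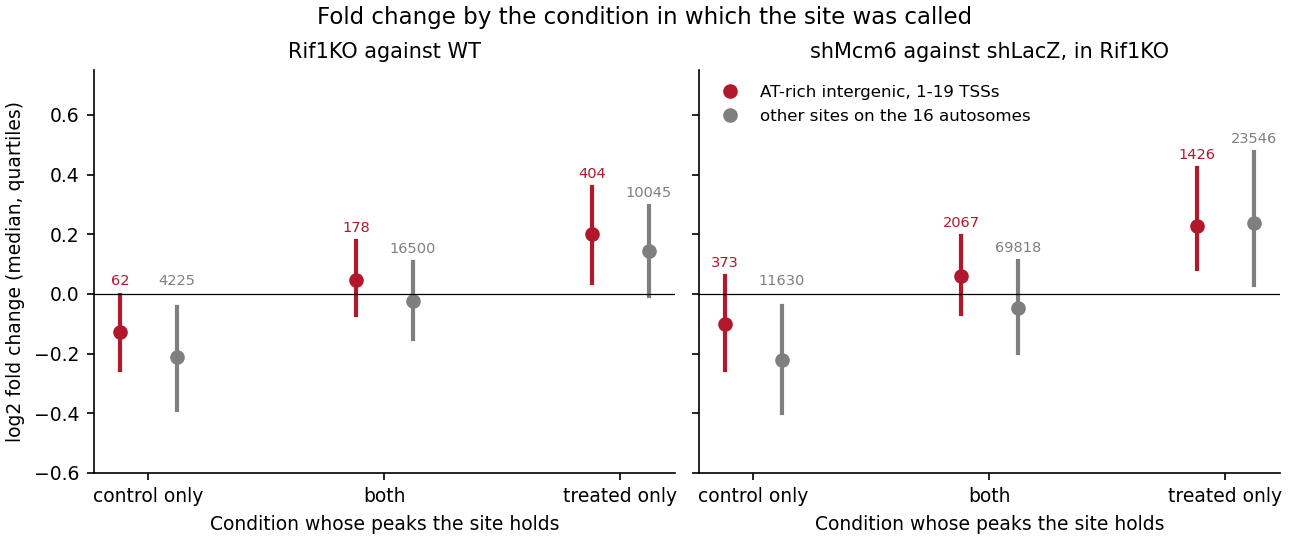
log2 fold change of AT-rich intergenic ISs (red) and of the other ISs of the 16 autosomes (grey) by the condition whose peaks an IS holds, with the median as a dot, the quartiles as a bar and the number of ISs above it. The red medians are at -0.13, 0.05 and 0.20 in Rif1KO against WT and at -0.10, 0.06 and 0.23 in shMcm6 against shLacZ, and they lie above the grey ones except for ISs called with shMcm6 alone.

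ISs of at least median density with the highest values show the sizes involved. Near Kif20b, which encodes a kinesin of cytokinesis, 48 WT reads (3.84) stood against 97 Rif1KO reads (4.70), a log2 fold change of 0.86 with a counting SE of 0.25. Near Rwdd3 there were 45 and 86 reads (0.78, SE 0.27). Near Vrk2, a protein kinase gene 483051 bp away, there were 60 and 110 reads (0.72, SE 0.23). All 3 were called in Rif1KO cells and not in WT cells, and the Rwdd3 and Vrk2 ISs were in both hairpin lists as well.

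The lowest values among ISs of at least median density were smaller in size. Near G6pd2, an autosomal copy of the gene for glucose-6-phosphate dehydrogenase, 69 WT reads stood against 57 Rif1KO reads (log2 fold change -0.43, SE 0.26). Near Tsn, which encodes the nucleic acid binding protein translin, there were 121 and 100 reads (-0.43, SE 0.19), and this IS was in all 4 lists. Near Ddhd1, a phospholipase gene, there were 83 and 71 reads (-0.38, SE 0.23).

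In cells without RIF1, the median of these ISs was also above that of the others with the Mcm6 hairpin. The median log2 fold change of the 3866 ISs was 0.10 (quartiles -0.05 and 0.27), with 67.3% above 0, against -0.02 and 47.8% for the other ISs of the same autosomes. Peaks of shMcm6 cells alone brought in 36.9% of the 3866 ISs and 22.4% of the others, which builds in part of the contrast here too. Among ISs called in both conditions the median was 0.06, against -0.05 for the others and -0.02 for intergenic ISs with the same gene neighbourhood and GC of 35 to 45%. Reads summed over the ISs went from 2.17% of the shLacZ reads to 2.35% of the shMcm6 reads, a log2 ratio of 0.11 with a counting SE of 0.0029. The median exceeded that of the other ISs on 16 of 16 autosomes, by 0.08 to 0.17, and ranged from 0.05 on chromosome 13 to 0.14 on chromosome 5. The densities are shares of the reads in ISs, so a higher share here is relative to the other ISs of the table.

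**Figure D4:**
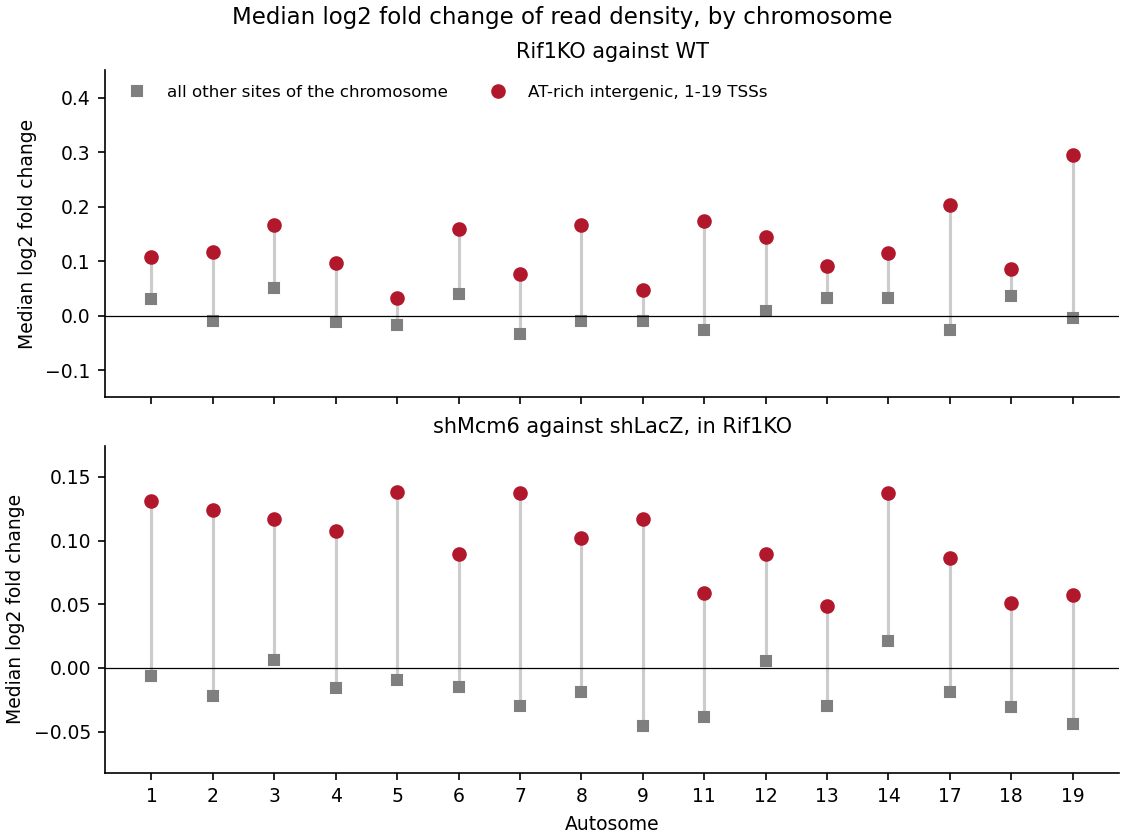
Median log2 fold change on each of the 16 autosomes for AT-rich intergenic ISs (red dots) and all other ISs of the chromosome (grey squares), in both comparisons. The red dot is above the grey square and above 0 on each autosome, at 0.03 to 0.29 in the upper panel and 0.05 to 0.14 in the lower panel.

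The share of ISs past 1.5-fold was not above the background in this comparison. With shMcm6, 176 of 3866 ISs (4.55%, interval 3.94 to 5.26) were at least 1.5-fold higher, against 4.8% of all ISs. At least 1.5-fold lower were 6 ISs (0.155%), against 1.51% of all ISs. The upward share was near that of the table as a whole but below that of the other ISs of like density, as given below, and the downward share was lower. ISs called with shMcm6 alone held 160 of the 176, or 11.2% of 1426 ISs against 16.8% of all such ISs, and of the 2067 ISs called in both conditions 15 (0.726%) were higher and 0 lower (a share of up to 0.145%), against 1.30% and 0.751% of all ISs called in both. At a log2 difference of 0.32 the shares were 19.8% higher and 3.39% lower, against 14.4% and 11.5% of all ISs.

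Most of these ISs, and with them most of the higher ones, had no counterpart in the other table. Of the 3866 ISs, 3507 (90.7%) overlapped no IS of the Rif1KO against WT table, against 75.6% of the other ISs. These 3507 held 175 of the 176 higher ISs (4.99%) and all 6 lower ones (0.171%), against 6.10% and 1.54% of the other ISs that overlapped none. Their median density with shLacZ was 2.33, against 3.05 for the 359 ISs that overlapped one. With all ISs of the table split into 4 bins of equal size by mean density, the lowest bin held 1541 of the 3866 ISs and 133 of the 176 higher ones. From the lowest to the highest bin 8.63%, 2.01%, 1.82% and 1.16% of these ISs were higher, against 10.5%, 4.47%, 2.72% and 1.998% of the other ISs, so the share was lower in each bin. The difference in median fold change between these ISs and the others was 0.08, 0.09, 0.12 and 0.13 from the lowest to the highest bin, and 0.10, 0.10, 0.12 and 0.16 in Rif1KO against WT, so it was present at each level of density.

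Among ISs of at least median density, the IS with the highest fold change lay 467061 bp from Klhl1, a gene of a neuronal actin-binding protein, on chromosome 14. It had 104 reads (2.30) with shLacZ and 242 reads (3.36) with shMcm6, a log2 fold change of 1.05 with a counting SE of 0.17, and was in the shMcm6 list alone. Near Gm10801 on chromosome 2 there were 90 and 190 reads (0.91, SE 0.18), in a window with a G-quadruplex pattern of 27 bases. An IS near G6pd2 had 90 and 183 reads (0.86, SE 0.19), and it was a different IS from the one that was low in Rif1KO cells. The windows of the Klhl1 and Gm10801 ISs held runs of a repeated 4-base unit, over 172 and 76 bases, and the G6pd2 window held none.

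Repeats of a 4-base unit, searched for after these windows had been seen, went with higher values in the hairpin comparison inside and outside the class. Of the 3866 ISs, 136 (3.52%) had a run of at least 6 copies in the central 300 bases. Their median fold change with shMcm6 was 0.18, and 18 of them (13.2%) were 1.5-fold higher, against 0.10 and 4.24% of the 3730 without a run. Among the other ISs of the 16 autosomes 13.3% with a run and 4.42% without were higher, so the contrast is not particular to AT-rich ISs. In Rif1KO against WT 22 of the 644 ISs had a run, with a median of 0.03, against 0.13 for the 622 without, and 1 of them (4.55%) was 1.5-fold higher, against 3.70%. Among the other ISs of that table the shares were 0.922% with a run and 0.886% without. How reads were placed in such repeats was not tested.

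Among ISs of at least median density, the lowest were near Gm17434, with 255 and 190 reads (-0.59, SE 0.14), near Depdc1a, with 176 and 132 reads (-0.58, SE 0.17), and near Rpl13-ps3, with 238 and 179 reads (-0.57, SE 0.14). The first and second of these were in the shMcm6 list and not in the shLacZ list, although they had fewer reads with shMcm6. The Rpl13-ps3 IS was in all 4 lists. At these 2 ISs the call and the pooled read number point in opposite directions.

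The fold change varied with GC content below and beyond the limit of 35%. In Rif1KO against WT the median was 0.25 for the 82 ISs with GC below 31%, 0.16 for 189 ISs from 31 to 33%, 0.09 for 139 from 33 to 34% and 0.08 for 234 from 34 to 35%. With shMcm6 it was 0.13, 0.11, 0.11 and 0.09. Across the ISs, Spearman's rho between GC and fold change was -0.15 over 644 ISs and -0.07 over 3866, as a description, since ISs of a table share libraries and depth. Beyond the limit, intergenic ISs with 1 to 19 TSSs and GC of 35 to 45% had medians of 0.09 and 0.01, and those with GC of 45% or more -0.01 and -0.04. Just above the limit, at a GC of 35 to 38%, the medians were 0.12 (981 ISs) and 0.06 (5641 ISs). Just below it, at 32 to 35%, they were 0.10 and 0.10, so the limit marks no step in Rif1KO against WT. The 2 ISs nearest below 35%, near St8sia4 and Gm10110 in the first table, had fold changes of 0.16 and 0.03, and the 2 nearest above it 0.30 and 0.33. In the hairpin table the values were 0.55 and 0.58 below the limit, near Pcdh10 and Pglyrp3, and -0.20 and -0.34 above it, near Col3a1 and Acyp2. The counting SEs were 0.23 to 0.26 in the first table and 0.15 to 0.19 in the second, and single ISs do not describe the limit.

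The medians of different gene neighbourhoods lay closer together at low GC than at high GC. Among AT-rich intergenic ISs the median in Rif1KO against WT was 0.15 with no TSS within 500 kb (243 ISs), 0.13 with 1 to 19, and 0.15 with 20 or more (58 ISs), and it was 0.12 for the 345 AT-rich ISs inside genes. At a GC of 50 to 55% the same 3 neighbourhoods gave 0.07, -0.01 and -0.10. With shMcm6 the values at low GC were 0.15, 0.10 and 0.09, with 0.09 inside genes, and at a GC of 50 to 55% they were 0.10, -0.05 and -0.12. The shares at least 1.5-fold higher in Rif1KO against WT were 3.29%, 3.73% and 8.62% (5 of 58) of AT-rich intergenic ISs with no, 1 to 19 and 20 or more TSSs, and with shMcm6 5.87%, 4.55% and 4.66%. No test of the differences between these classes was possible.

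**Figure D5:**
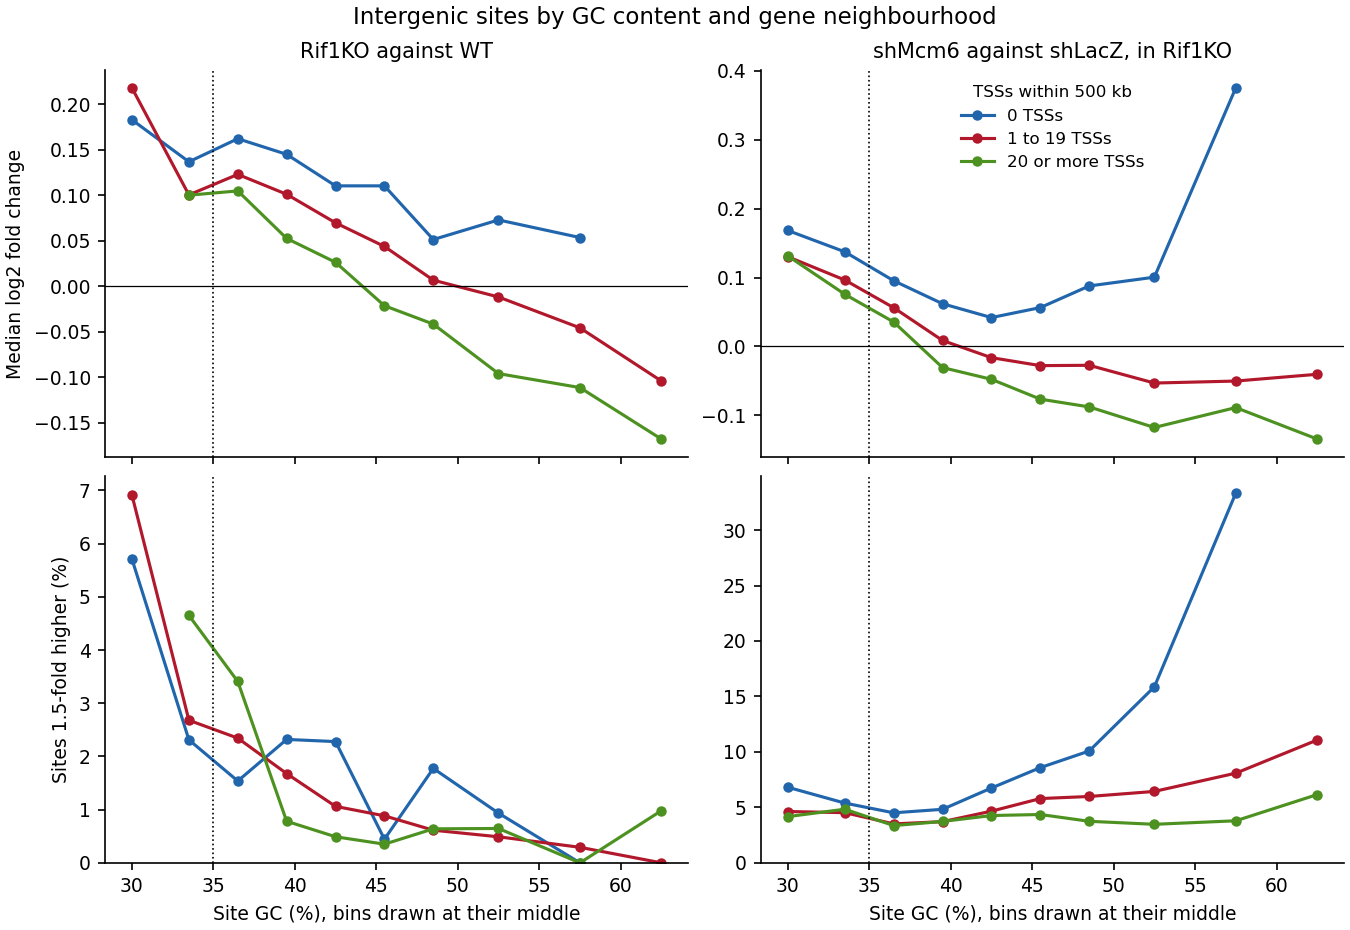
Median log2 fold change (top) and share of ISs at least 1.5-fold higher (bottom) against the GC content of intergenic ISs, by the number of TSSs within 500 kb, with the 35% limit as a dotted line. In the top panels the 3 lines are closer together to the left of the limit than at a GC of 50 to 55%, where the medians are 0.07, -0.01 and -0.10 in Rif1KO against WT. The shares in the bottom panels rest on few ISs at low GC, 43 for 20 or more TSSs at a GC of 32 to 35% in Rif1KO against WT.

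Within the class the median fold change was lower at ISs with 5 to 19 TSSs nearby than at those with fewer, which did not extend to the AT-rich ISs with 20 or more in Rif1KO against WT. In Rif1KO against WT the median was 0.13 with 1 TSS within 500 kb, 0.16 with 2 to 4, 0.09 with 5 to 9 and 0.08 with 10 to 19. The other ISs of the 16 autosomes had 0.10, 0.06, 0.01 and -0.03 in these bins, so a fall with more TSSs was not particular to the class. At least 1.5-fold higher were 1.78%, 7.41%, 0.662% and 2.47% of the ISs in these 4 bins, so 18 of the 24 had 2 to 4 TSSs, against 1.37%, 1.37%, 0.911% and 0.406% of the other ISs in the same bins. With shMcm6 the medians were 0.13, 0.10, 0.07 and 0.07, against 0.06, 0.01, -0.04 and -0.07 for the other ISs. Spearman's rho between the number of TSSs and the fold change was -0.10 over 644 ISs and -0.098 over 3866, as a description. In the hairpin table the 193 ISs that lay 10 kb or more from any other IS had a median of 0.0051 and 1 IS that was 1.5-fold higher, against 0.12 and 69 of 1037 ISs where another lay within 2 kb. As shares these were 0.518% and 6.65%, and for the other ISs at the same distances 1.56% and 5.30%. The Rif1KO against WT table gave 0.12 and 0.11 for the same distances.

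ISs with a G-quadruplex pattern had lower densities than the rest of the class. In the Rif1KO against WT table the 141 ISs with the pattern had a median density of 3.81 in WT and 3.86 in Rif1KO cells and a median fold change of 0.05, against 4.16, 4.27 and 0.15 for the 503 without it. They were narrower, with a median of 302 bp against 431 bp, and 22.0% were called in both conditions against 29.2%. The lower density was not particular to the class. In WT cells it was 3.72 against 4.17 at AT-rich intergenic ISs with no TSS within 500 kb and 3.75 against 4.16 at AT-rich ISs inside genes. At intergenic ISs with GC of 35 to 45% it was 4.11 against 4.41. The median fold changes of these 3 classes were 0.11 against 0.16, 0.04 against 0.13 and 0.05 against 0.11. In the hairpin table the 238 ISs with the pattern had densities of 1.79 and 1.81, against 2.42 and 2.52, and 26.5% were called in both conditions against 55.2%. Their median fold change was 0.08 against 0.11, yet 23 of them (9.66%) were 1.5-fold higher with shMcm6 against 4.22% of the others. The contrast was not particular to the class, with 8.85% against 3.43% of intergenic ISs with GC of 35 to 45% and 10.1% against 4.67% with 45% or more, and it ran the other way for AT-rich ISs inside genes (3.67% against 4.11%) and for the 644 ISs in Rif1KO against WT (2.84% against 3.98%). Width, density and the number of reads moved together with the pattern, and their part in these values was not tested. Of the other motifs, repeats of CA or TG went with a median fold change of 0.02 over 7 ISs, against 0.13 for the rest, in the first table and of 0.14 over 85 ISs, against 0.10, in the second. CAGCTG went with 0.05 over 25 ISs against 0.13, and with 0.06 over 98 ISs against 0.11. With and without TATAAA the medians were 0.13 in the first table and 0.10 in the second.

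The share of this class differed between the lists of ISs called in each condition, as it did for other AT-rich ISs. ISs that met the rule were 294 of 21009 on the 16 autosomes in WT cells (1.40%, interval 1.25 to 1.57), 599 of 27145 in Rif1KO cells (2.21%, 2.04 to 2.39), 2705 of 84516 with shLacZ (3.20%, 3.08 to 3.32) and 3799 of 97063 with shMcm6 (3.91%, 3.79 to 4.04). Each condition has 1 pooled list, so these intervals give no test between conditions. The share rose in the same order for AT-rich intergenic ISs with no TSS within 500 kb (0.400%, 0.869%, 1.42% and 1.92%) and for all ISs with GC below 35% (2.68%, 4.52%, 6.43% and 7.97%). Reads in ISs rose from 3350255 (WT) and 3724571 (Rif1KO) to 21071351 (shLacZ) and 23602750 (shMcm6) in the same order, and the part of depth in these shares was not tested.

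Fewer of these ISs were in the WT list, or in all 4 lists, than of all ISs of the tables. Of the 644 ISs of the Rif1KO against WT table, 37.3% (interval 33.6 to 41.1) overlapped an IS of the WT list against 65.9% (65.4 to 66.4) of all ISs of the table. The Rif1KO list was overlapped by 90.4%, against 85.8% of all ISs. The WT list was overlapped by 29.2% of AT-rich intergenic ISs with no TSS within 500 kb, 25.9% of those with 20 or more and 39.1% of AT-rich ISs inside genes, so the low share is not particular to the class. The shLacZ and shMcm6 lists were overlapped by 81.7% and 81.4% of the 644 ISs, against 77.9% and 76.9% of all ISs of the table. In all 4 lists were 142 ISs (22.0%), against 39.0% of all ISs. In the hairpin table, 4.27% of the 3866 ISs overlapped the WT list and 8.56% the Rif1KO list, against 16.4% and 21.7% of all ISs. Where at least 50% had to overlap, these were 2.25% and 5.69%, against 10.4% and 15.5% of all ISs. The shLacZ list was overlapped by 63.1% of the 3866, against 76.9%.

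The 211 ISs that met the rule in both tables allowed the comparisons, which share no library, to be set side by side. Of the 644 ISs of the first table, 551 matched exactly 1 IS of the hairpin table, and for 340 of these the hairpin IS was not included, and in all 340 its GC was 35% or more. The 211 had a median fold change of 0.14 in Rif1KO against WT (69.7% above 0) and of 0.04 in shMcm6 against shLacZ (56.4% above 0). For the other 25303 paired ISs of the 16 autosomes the medians were 0.01 and -0.09. In the first comparison 8 of the 211 were 1.5-fold higher, in the second 0, which allows a share of up to 1.42%. Of the other paired ISs 0.905% and 0.897% were higher, so the 0 is near that background. Across the 211 ISs, Spearman's rho between the fold changes was 0.03 and Pearson's r 0.05, and for the other paired ISs rho was 0.12.

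The shared ISs with the highest sums differed in how the comparisons contributed. The Vrk2 IS, at 0.72 in Rif1KO cells, had 262 reads with shLacZ and 327 with shMcm6 (log2 fold change 0.16, SE 0.12). The IS near Tnip3, which encodes an inhibitor of NF-kB signalling, had 70 WT and 95 Rif1KO reads (0.29, SE 0.23), and 110 and 184 reads in the hairpin cells (0.58, SE 0.17). The IS near Gm8226 had 30 and 51 reads (0.61, SE 0.33), and 127 and 194 reads (0.45, SE 0.16). The Gm8226 IS was high in both comparisons, with the larger value in the first, on fewer reads.

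At the low end were the 3 ISs whose windows in the first table hold the G-quadruplex pattern printed above. The hairpin-table ISs at the same places have other midpoints, and none of their 3 central windows holds the pattern. The Ankrd7 IS had 61 WT and 49 Rif1KO reads (log2 fold change -0.47, SE 0.28), and 237 and 229 reads in the hairpin cells (-0.21, SE 0.13). The Gm12666 IS had 52 and 46 reads (-0.33, SE 0.29), and 108 and 97 reads (-0.32, SE 0.20). The IS near Zfp827, a zinc finger gene, had 55 and 47 reads (-0.38, SE 0.29), and 134 reads in each of the hairpin conditions (-0.16, SE 0.18). All 6 values were within 2 counting SEs of 0, and all 3 ISs were called in WT cells and in both hairpin lists.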

How the data were processed

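SNS-seq libraries were trimmed by the authors with Trim Galore 0.6.4 (cutadapt 2.6) and aligned to mm9 with Bowtie 1.2.3, keeping unique alignments. Peaks were called per replicate with MACS without input, consensus peaks were kept inside clusters, and peak sets of both conditions were merged with bedtools. The deposited tables hold log2 RPM, reads per 1000000 reads in ISs, as 1 value per condition, and how replicates were pooled is not given in the sources used here. The deposited lists also hold a number of merged peaks per IS, and a column with the authors' fold-change category was not used. Whole reads were recovered from the RPM steps, which gave the counting SEs. ISs were placed on NCBIM37 (mm9) and GENCODE M1 with 22380 protein-coding genes. Changes were counted at 1.5-fold (log2 0.58), and an IS is said to be called in a condition where it holds a peak of that condition. No model was fitted, since no replicate values were used. The ISs, gene lists and motifs were chosen with earlier results of these data known. ISs were named by rule: among those of at least median density, the 3 highest and 3 lowest fold changes per table, the 3 densest in the control, the 3 highest and 3 lowest sums among shared ISs, and the 2 nearest to 35% GC on either side. The searches for recurring 12-base sequences and 4-base repeats were added after the data were seen. Scripts were tested on simulated data and used Python 3.11.15, numpy 2.4.6, pandas 2.3.3, scipy 1.17.1, pysam 0.24.0 and matplotlib 3.10.9. Alternatives covered the GC limit, the TSS window, density filters, peak support, the log offset, centring, fold thresholds and the overlap. Reads carried no molecular identifiers, so errors cover counting only.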

Additional observations from a re-analysis of the deposited data

How the results depend on the processing

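Of 69 alternatives over 17 results, 31 were counted as within the spread or interval of the reported value and 38 as beyond it. The cause was not tested. The 31 include the number of ISs that met the rule in both tables, which had no interval and went from 211 to 164 at 50% overlap. A change of sign was counted in 0, but only a median fold change could show a reversal. A share or a number of ISs cannot be negative, and the sign of a density is no direction of change. With GC below 33% the median log2 fold change was 0.18 in Rif1KO against WT and 0.12 in shMcm6 against shLacZ, and the median density was 4.01 in WT, 2.26 with shLacZ and 2.38 with shMcm6. With GC below 37% the hairpin fold change was 0.0887, and the densities were 4.23 in Rif1KO, 2.47 with shLacZ and 2.57 with shMcm6. A TSS window of 250 kb gave a hairpin fold change of 0.0903, a window of 1 Mb 0.12, log2(RPM + 1) 0.0889, centring 0.11 and a mean density at or above the lower quartile 0.0949. For ISs called in both conditions the fold changes were 0.047 and 0.0587, and the densities 4.35 (WT), 4.45 (Rif1KO), 2.63 (shLacZ) and 2.71 (shMcm6). Per kb of width the densities were 5.38, 5.50, 3.30 and 3.38.

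The share of ISs changed 1.5-fold in either direction, 3.88% in Rif1KO against WT, was 1.83% at or above the lower quartile of density, 0% among ISs called in both conditions, 0.155% at 2-fold and 23.8% at log2 0.32, against 3.69%, 1.72%, 0.286% and 24.3% of all ISs. In shMcm6 against shLacZ the share changed in either direction was 4.71%. Under the same settings it was 1.89%, 0.726%, 0.569% and 23.2%, against 3.91%, 2.05%, 1.02% and 25.9% of all ISs. With log2(RPM + 1) it was 2.25%, against 3.50%. At an overlap of 50%, 68.3% of the ISs of the first table were in the shLacZ list and 55.9% in the shMcm6 list, against 66.2% and 56.2% of all ISs. Of the hairpin-table ISs 2.25%, 5.69% and 60.1% were in the WT, Rif1KO and shLacZ lists, against 10.4%, 15.5% and 74.2% of all ISs.

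No paired analysis was possible because replicates had already been combined into a single column for each condition, and leaving out 1 replicate was not possible for the same reason. With a median counting SE of 0.26 and 0.19 per IS, a difference the size of the median was not detectable at a single IS, so medians and summed reads carry the comparisons.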

Other observations

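AT-rich intergenic ISs with 1 to 19 TSSs on chromosomes 10, 15 and 16, which were not used above, differed from the other ISs of their chromosome in the same direction. In Rif1KO against WT the median log2 fold change was -0.11 for 49 ISs on chromosome 10, 0.35 for 115 on chromosome 15 and 0.45 for 85 on chromosome 16, against -0.37, 0.15 and 0.33 for the other ISs there. The differences were 0.26, 0.20 and 0.12, on chromosomes whose other ISs were themselves shifted. Of these ISs 0, 27 and 25 were at least 1.5-fold higher, and 5, 0 and 0 at least 1.5-fold lower. As shares, 0%, 23.5% and 29.4% were higher, against 0.566%, 9.13% and 13.7% of the other ISs of these chromosomes, and 10.2% were lower on chromosome 10, against 22.4%. In shMcm6 against shLacZ the medians were 0.08 (216 ISs), 0.13 (294 ISs) and 0.05 (209 ISs), against -0.04, -0.0051 and 0.0072.

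The ISs with the recurring sequence ACATTTCCAATG had a median fold change of 0.05 over 67 ISs in Rif1KO against WT and of -0.0032 over 215 ISs in the hairpin table, where all ISs of the class had 0.13 and 0.10. Their median density was 3.96 in WT cells and 1.91 with shLacZ.

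Among runs of neighbouring ISs linked within 50 kb, the one with the most ISs in the first table held 5 over 75.9 kb near Olfr1507 on chromosome 14. Its median fold change was 0.10. The run with the most ISs in the hairpin table held 11 over 174 kb near Slitrk6, with a median of 0.14. The next by number held 10 ISs near Gm5263 (0.09), 9 near Tmem196 (-0.08, over 238 kb) and 9 near Gm10742 (0.30).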
